A study of Homo sapiens with 4 samples.

Results

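Transforming growth factor beta (TGF-beta) genes were followed in breast cancer cells with and without depletion of hnRNPM, an RNA-binding protein that takes part in splicing. The 10 genes were TGFB1, TGFB2, TGFBR1, TGFBR2, TGFBR3, SMAD2, SMAD3, SMAD4, SKIL and TGFBI, picked by name from a table of 20369 gene entries, and all 10 had a row and passed a filter of a mean of at least 1 FPKM (fragments per kilobase of transcript, scaled to sequencing depth). They were selected from differences between these same libraries, knockdown against control and LM2 against BM1, so their values are given as a description with no test. BM1 (1833) and LM2 (4175) are sublines of MDA-MB-231, a triple-negative human breast cancer line; per the labels BM1 derives from a bone metastasis and LM2 from a lung metastasis. Each line gave 1 library of cells carrying a non-specific shRNA (control) and 1 from cells with an shRNA against hnRNPM (knockdown), 4 libraries in all, with no replicate of any line and treatment. All cells carried a stably expressed lentiviral shRNA and grew in medium with serum, and no library came from cells without an shRNA. The labels give no shRNA sequence and name no second shRNA, so loss of hnRNPM and any other action of that shRNA cannot be told apart.

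TGF-beta ligands are secreted in a latent form and, once freed, bind the type II receptor TGFBR2, a kinase that recruits and switches on the type I receptor TGFBR1. TGFBR3 (betaglycan) is a co-receptor that presents ligand, TGFB2 above all, to the signalling pair. TGFBR1 phosphorylates SMAD2 and SMAD3, which join SMAD4 and enter the nucleus to act on target genes; SKIL (SnoN) is a repressor that holds these SMAD complexes in check and is itself a target, and TGFBI encodes a secreted matrix protein named for its induction by TGF-beta. In epithelial cancers the pathway is known for driving the epithelial-mesenchymal transition, the subject that the title of the series names.

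Sequences upstream of the transcript start are shown for the 4 genes with the largest differences below, TGFBR2, TGFB2, SKIL and TGFBI, because the results turn on these genes. Each is the 250 bases before a RefSeq start on GRCh38.p14, from a table that held all 10 genes, written 5′ to 3′ on the strand of the gene. Capitals mark matches on either strand to 6 short motifs. The AP-1 motif was searched as TGANTCA, and the core of the cAMP response element (CRE) as TGACGT. A SMAD-binding element was searched as CAGAC, and the GC box known from Sp1 binding as GGGCGG. The TATA box was searched as TATAAA, and the E-box as CACGTG.
TGFBR2, chr3:30606351-30606600, plus strand: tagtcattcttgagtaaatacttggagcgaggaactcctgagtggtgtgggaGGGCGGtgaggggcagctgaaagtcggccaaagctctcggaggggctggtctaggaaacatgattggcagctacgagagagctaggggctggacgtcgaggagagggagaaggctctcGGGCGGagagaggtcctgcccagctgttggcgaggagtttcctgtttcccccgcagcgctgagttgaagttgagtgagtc
TGFB2, chr1:218345086-218345335, plus strand: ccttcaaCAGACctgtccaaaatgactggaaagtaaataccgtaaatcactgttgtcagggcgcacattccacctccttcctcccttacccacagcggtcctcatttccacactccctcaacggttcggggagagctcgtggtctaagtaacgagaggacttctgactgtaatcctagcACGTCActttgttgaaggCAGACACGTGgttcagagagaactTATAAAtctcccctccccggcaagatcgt
SKIL, chr3:170357465-170357714, plus strand: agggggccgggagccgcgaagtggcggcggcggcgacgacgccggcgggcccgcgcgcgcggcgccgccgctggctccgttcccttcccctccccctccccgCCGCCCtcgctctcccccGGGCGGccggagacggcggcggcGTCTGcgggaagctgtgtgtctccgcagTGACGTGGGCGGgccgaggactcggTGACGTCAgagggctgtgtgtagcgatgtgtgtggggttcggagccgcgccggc
TGFBI, chr5:136028738-136028987, plus strand: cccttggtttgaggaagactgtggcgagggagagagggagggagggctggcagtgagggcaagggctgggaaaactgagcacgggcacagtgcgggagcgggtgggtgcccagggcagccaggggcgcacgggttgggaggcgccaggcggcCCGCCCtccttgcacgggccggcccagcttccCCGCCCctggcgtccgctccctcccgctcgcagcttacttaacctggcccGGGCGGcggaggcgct

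The upstream windows of the 4 genes differed in makeup. The TGFB2 window, 50.4% G and C, held a TATA box that began 29 bases before the start, a CRE core at 71 bases, an E-box at 49 bases and CAGAC at 243 and 53 bases, where the second CAGAC shared a base with the E-box. The SKIL window, 78.4% G and C, held 3 CRE cores at 79, 54 and 52 bases, of which the last 2 overlap as the palindrome TGACGTCA, 3 GC boxes and 1 CAGAC. The TGFBR2 window, 58.4% G and C, and the TGFBI window, 72.8% G and C, held only GC boxes, 2 and 3 of them. RefSeq lists a second TGFBR2 window, farther upstream, which held none of the 6 motifs.

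**Figure D1:**
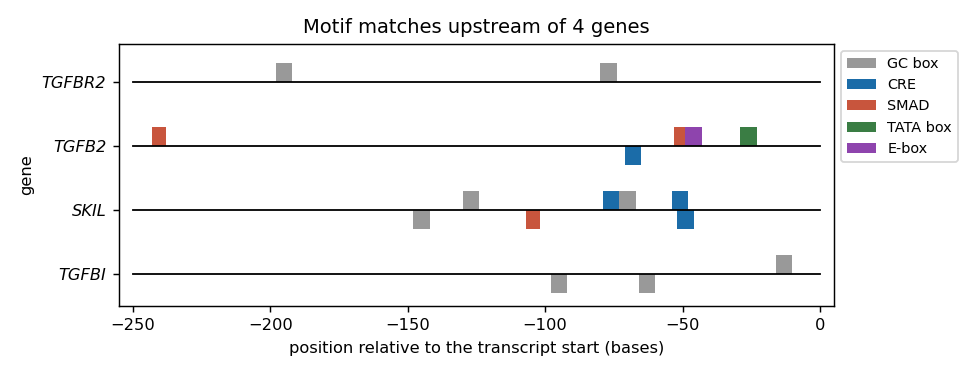
Motif matches in the 250 bases before the transcript start of TGFBR2, TGFB2, SKIL and TGFBI; the horizontal axis is the distance from the start in bases, and bars above or below a line are matches on the strand of the gene or on the opposite strand. CRE cores lie in the TGFB2 and SKIL windows, while TGFBR2 and TGFBI show GC boxes alone.

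Among all 35116 windows of the table, 7.1% held a CRE core, 10.7% a TATA box, 6.3% the E-box, 6.6% an AP-1 match, 38.0% CAGAC and 42.6% a GC box. A match is a string of letters and not a measured binding site, and the windows come from another build than the deposited table, so only gene names link them.

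The label of the targeted gene was checked first. HNRNPM read 171 FPKM in BM1 control cells against 28.4 after knockdown, and 132 against 20.3 in LM2, so 16.6% and 15.4% of the control level was left. Sequencing depth, inferred from the spacing of values near 0, ranged from 22800000 fragments in the BM1 knockdown to 41500000 in the LM2 control. Mitochondrial genes took 9.31% and 8.80% of the FPKM sum in the BM1 and LM2 controls and 12.8% and 11.8% in the knockdowns. Markers of a mesenchymal triple-negative line, VIM, CD44, CAV1, ANXA1, MSN and AXL, were all at 144 FPKM or more in every library. Their sum was 3580 FPKM in the BM1 control and 2350 in the BM1 knockdown, against 2940 and 3340 in LM2. VIM alone read 2350 and 1160 FPKM in BM1 and 1570 and 1790 in LM2. CDH1 (E-cadherin) was between 0.170 and 4.08 FPKM and higher in both knockdowns. ESR1, PGR, FOXA1, PTPRC, CD3E, PECAM1, CDH5 and DCN were not analysed here. In bulk RNA from a culture, fewer cells with a transcript and less transcript per cell cannot be told apart.

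TGFBR2 was far lower in the knockdown than in the control of both lines. This type II receptor gene (ENSG00000163513.17, chromosome 3, 30647994 to 30735634, plus strand) was at 56.4 FPKM in the BM1 control and 6.84 in the BM1 knockdown, and at 37.2 FPKM in LM2 control cells and 3.76 after LM2 knockdown. Both knockdown libraries were low and both controls high, with 12.1% of the control level left in BM1 and 10.1% in LM2. Knockdown minus control on the log2(FPKM + 1) scale, which is used for all differences below and understates those of low genes, was -2.87 in BM1 and -3.01 in LM2. With mitochondrial genes left out of the scaling, it was -2.82 and -2.96. The level was lower in LM2 than in BM1 under either shRNA, by 1.52-fold between controls and 1.82-fold between knockdowns. TGFBR2 overlaps no other listed gene.

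Coordinates of genes are those of the deposited table, on GRCh37 per the submitters' processing notes. TGFBR1, the type I receptor (ENSG00000106799.12, chromosome 9, 101866320 to 101916474, plus strand), read 5.29 FPKM in BM1 control cells against 5.90 after knockdown, and 11 against 6.20 in LM2. The LM2 control stood above the other 3 libraries, which lay between 5.29 and 6.20 FPKM. Knockdown minus control was 0.13 in BM1 and -0.74 in LM2.

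TGFBR3, the co-receptor (ENSG00000069702.10, chromosome 1, 92145900 to 92371892, minus strand), read 5.19 FPKM in BM1 control cells against 17.2 after knockdown, and 6.37 against 13.7 in LM2. Both knockdowns were above both controls, by 3.32-fold in BM1 and 2.14-fold in LM2, opposite to TGFBR2. Because FPKM is per length, the receptors can be set against each other. TGFBR2 transcripts stood at 10.7 times the TGFBR1 level in the BM1 control and 3.38 times in the LM2 control, and at 1.16 and 0.606 times in the corresponding knockdowns. The ratio of TGFBR3 to TGFBR2 was 0.092 and 0.171 in the controls of BM1 and LM2 and 2.52 and 3.64 in the knockdowns. The order of the receptor genes thus changed with the shRNA, from TGFBR2 highest in both controls to TGFBR3 highest in both knockdowns.

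**Figure D2:**
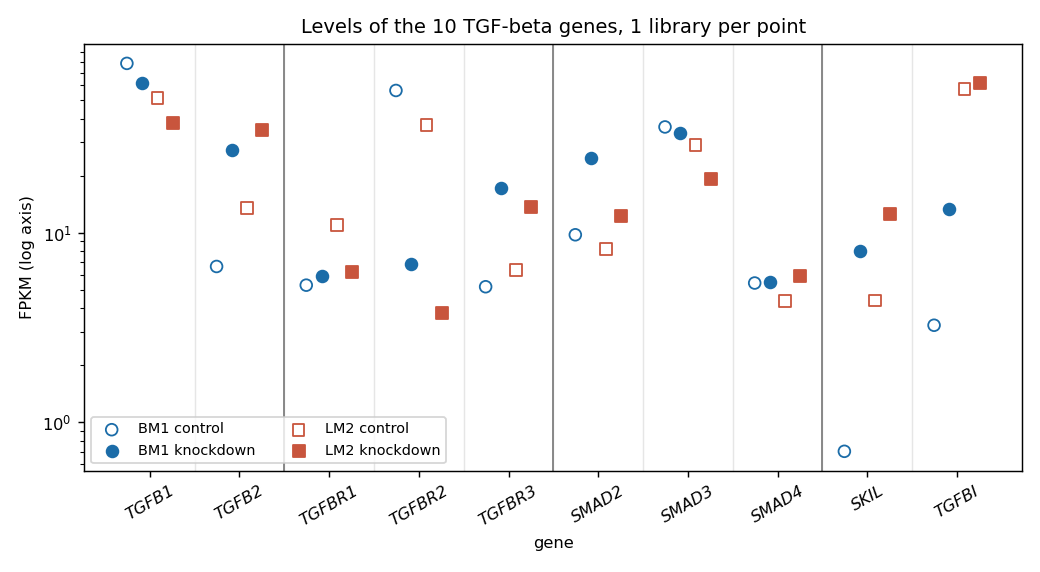
FPKM (log axis) of the 10 genes in the 4 libraries, 1 library per point; open symbols are controls and filled symbols knockdowns, circles BM1 and squares LM2, and vertical grey lines separate ligands, receptors, SMADs, and SKIL with TGFBI. TGFBR2 is at 56.4 and 37.2 FPKM in the controls and 6.84 and 3.76 in the knockdowns, while TGFB2, TGFBR3 and SKIL are higher in both knockdowns.

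The 2 ligand genes differed in the size and sign of their knockdown difference. TGFB1 (ENSG00000105329.9, chromosome 19, 41807492 to 41859816, minus strand), the most widely expressed isoform, read 78.4 FPKM in BM1 control cells against 61.5 after knockdown, and 51.6 against 38.0 in LM2. Each knockdown was below its own control, at 78.5% and 73.7% of it, but the BM1 knockdown was above the LM2 control, so the treatments overlapped across lines. TGFB1 overlaps HNRNPUL1, CCDC97 and TMEM91 on the opposite strand. HNRNPUL1 was higher than TGFB1, at 207 and 117 FPKM in BM1 and 148 and 121 FPKM in LM2, and was also lower in the knockdowns; the libraries were stranded per the labels, but the sources used here do not say whether the counting used strand.

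TGFB2 (ENSG00000092969.11, chromosome 1, 218519577 to 218617961, plus strand), the isoform that depends most on TGFBR3, read 6.64 FPKM in BM1 control cells against 27.3 after knockdown, and 13.5 against 34.8 in LM2. Both knockdowns were above both controls, by 4.10-fold in BM1 and 2.58-fold in LM2, with differences of 1.89 and 1.31. The ratio of TGFB1 to TGFB2 was 11.8 in the BM1 control and 3.83 in the LM2 control, against 2.26 and 1.09 in the knockdowns. The excess of TGFB1 over TGFB2 was thus smallest in the LM2 knockdown. TGFB2 overlaps TGFB2-OT1 on the same strand, which was at most 0.185 FPKM.

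Of the SMAD genes, SMAD2 showed the largest knockdown difference in BM1 (1.27), while in LM2 the differences of SMAD2 (0.53) and SMAD3 (-0.57) were of like size and opposite sign. SMAD2 (ENSG00000175387.15, chromosome 18, 45335328 to 45457517, minus strand), a receptor-activated SMAD, read 9.76 FPKM in BM1 control cells against 24.9 after knockdown, and 8.21 against 12.3 in LM2. Both knockdowns were above both controls, by 2.55-fold in BM1 and 1.49-fold in LM2. SMAD3 (ENSG00000166949.15, chromosome 15, 67356101 to 67487533, plus strand), a receptor-activated SMAD that binds DNA directly, unlike the main SMAD2 isoform, read 36.2 FPKM in BM1 control cells against 33.7 after knockdown, and 29.1 against 19.3 in LM2. The LM2 knockdown was the low library and the other 3 lay within 29.1 to 36.2 FPKM.

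SMAD4 (ENSG00000141646.13, chromosome 18, 48554764 to 48611415, plus strand), the shared partner, varied least, with 5.43 FPKM in BM1 control cells against 5.48 after knockdown, and 4.37 against 5.88 in LM2. Its difference of 0.01 in BM1 had no stable sign, since it was -0.10 after quantile normalization and -0.02 after scaling to the median ratio. SMAD3 stood at 3.71 times the SMAD2 level in the BM1 control and 3.55 times in the LM2 control, and at 1.35 and 1.58 times in the knockdowns. SMAD4 overlaps RP11-729L2.2 on the same strand, which was at most 0.0591 FPKM.

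SKIL, the repressor of SMAD complexes (ENSG00000136603.13, chromosome 3, 170075466 to 170114623, plus strand), read 0.702 FPKM in BM1 control cells against 8.05 after knockdown, and 4.39 against 12.5 in LM2. Both knockdowns were above both controls, and the BM1 control was far below the other 3 libraries. The differences were 2.41 in BM1 and 1.32 in LM2. The BM1 control value stands for about 21.9 fragments per kilobase at the inferred depth, against 183 in the BM1 knockdown, and the size of its difference depends on the pseudocount. In BM1, SKIL differed less than TGFBR2 with a pseudocount of 1 (2.41 against -2.87) and more with 0.1 (3.35 against -3.02), and as a plain ratio it was 11.5-fold higher where TGFBR2 was 8.24-fold lower.

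TGFBI (ENSG00000120708.16, chromosome 5, 135364584 to 135399507, plus strand), the matrix gene, differed most between the lines. It read 3.25 FPKM in BM1 control cells against 13.3 after knockdown, and 57.4 against 61.8 in LM2. Both LM2 libraries were above both BM1 libraries, by 17.6-fold between controls and 4.65-fold between knockdowns. Knockdown minus control was 1.75 in BM1 and 0.11 in LM2. The 2 lines' knockdown differences were not tested against each other for any gene, since 4 libraries leave no degrees of freedom for it.

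**Figure D3:**
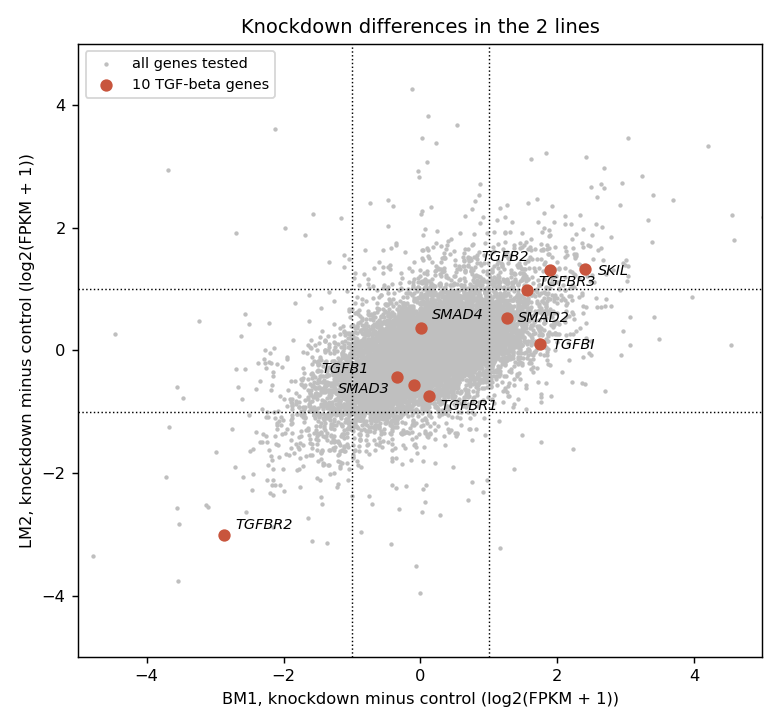
Knockdown minus control on log2(FPKM + 1) in BM1 (horizontal) and LM2 (vertical), with grey points for the genes tested (2 lie outside the axes), red points for the 10 TGF-beta genes, and dotted lines at a 2-fold difference. TGFBR2 lies at -2.87 and -3.01, and TGFB2 and SKIL are past 2-fold upward in both lines.

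Taking differences of 2-fold or more (1 on the log2(FPKM + 1) scale), 5 of the 10 genes were higher in the BM1 knockdown (TGFBR3, TGFB2, SMAD2, TGFBI and SKIL), where 10.1% of the 13928 genes tested were, and 1 was lower (TGFBR2), where 6.2% were. In LM2, 2 were higher (TGFB2 and SKIL; background 3.83%) and 1 was lower (TGFBR2; background 4.24%). Of the printed windows, those of TGFB2 and SKIL hold CRE cores, which is a description of 2 windows only. Windows were printed for genes with large differences, and the motifs were chosen with earlier results known. A link between motif and difference was therefore not tested. TGFBR3 sat just below the rule in LM2, at 0.99, and was at 1.03 to 1.09 under each of the 5 other scalings and pseudocounts tried. The median difference of the 10 genes was 0.70 in BM1 and 0.23 in LM2, beside medians over all genes of 0 and -0.04. These contrasts chose the genes, so the counts and medians support nothing beyond the description.

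Between the lines, on the same scale, 2 of the 10 genes were at least 2-fold higher in the LM2 control than in the BM1 control (TGFBI and SKIL; 6.98% of all genes tested) and none was 2-fold lower (5.26%). Between knockdowns 1 was 2-fold higher (TGFBI; 4.41%) and none was 2-fold lower (4.63%). The added pseudocount kept 3 genes just short of the rule: TGFBR1 (0.93) and TGFB2 (0.92) between controls and SMAD2 (-0.97) between knockdowns. With a pseudocount of 0.1 they passed it, at 1.04, 1.01 and -1.02, and as a plain FPKM ratio SMAD2 was 2.03-fold lower in the LM2 knockdown than in the BM1 knockdown. As plain FPKM ratios, SKIL went from 6.25-fold higher in LM2 between controls to 1.55-fold between knockdowns, TGFB2 from 2.03-fold to 1.28-fold, and TGFBR1 from 2.08-fold to 1.05-fold. TGFB1 and TGFBR2 were lower in LM2 under either shRNA, with differences from -0.59 to -0.72. The comparisons between lines and those between treatments use the same 4 libraries.

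**Figure D4:**
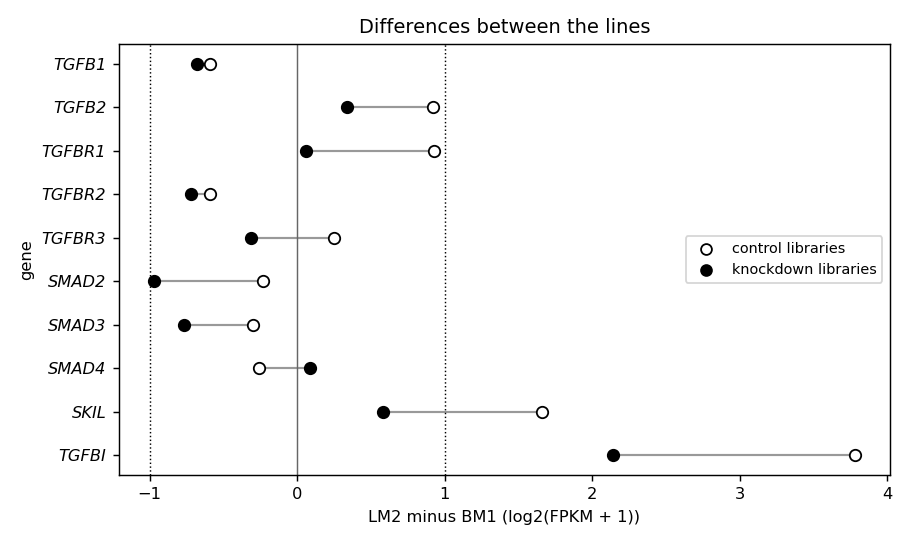
LM2 minus BM1 on log2(FPKM + 1) for each of the 10 genes, between the control libraries (open points) and between the knockdown libraries (filled points), with dotted lines at a 2-fold difference. TGFBI is at 3.78 and 2.14, and SKIL, TGFB2 and TGFBR1 lie closer to 0 between knockdowns than between controls.

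The genes whose pattern over the 4 libraries came closest to that of TGFBR2, by Euclidean distance between centred log2(FPKM + 1) values, were HNRNPM (0.42), HMGA1 (0.44), CPVL (0.66), AL021707.1 (0.74) and MRFAP1 (0.77), where the spread of TGFBR2 itself was 3.01 on the same measure. HMGA1, which encodes a chromatin protein, read 616 FPKM in BM1 control cells against 68.9 after knockdown, and 275 against 46.8 in LM2. For TGFBI the closest were FN1 (0.81), AC010642.1 (0.83), ASS1 (0.84), TAGLN (0.86) and COL1A1 (0.88), beside its own spread of 3.21. FN1, TAGLN and COL1A1 encode fibronectin, the actin-binding protein transgelin and a collagen chain, and all 3 are also in the list of TGF-beta targets described next. That list was chosen with earlier results of these data known, and TGFBI was picked from differences between these same libraries. The overlap is therefore no independent support, and the ranking is a description over 4 libraries.

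The rest of the pathway was read from 6 lists, 139 genes in all, of which 129 had a row and 120 passed the filter. The lists were chosen with earlier results of these data known. In limma, with terms for line and treatment, 8 of these 120 genes were higher and 4 lower in the knockdowns at a Benjamini-Hochberg adjusted p below 0.05, beside 2.71% and 2.76% of all genes tested. The fit has 1 residual degree of freedom, which is the difference between the lines' knockdown changes. Its standard errors and p-values therefore measure no spread of replicates. Each gene's spread is also drawn by limma toward a value shared by all genes tested. Each of the 12 moved in 1 direction in both lines, as did all 762 genes called. Such a fit favours genes with like changes in both lines, so this is no separate support. The median change of the 120 genes was 0.17, beside -0.01 over all genes. At an unadjusted p below 0.05 there were 48 of the 120, beside 3465 of all 13928 genes tested.

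Among ligands and proteins of ligand latency (17 genes tested), 4 rose and 1 fell in the knockdowns, beside 2.71% and 2.76% of all genes tested. THBS1, thrombospondin 1, which can free latent TGF-beta, rose in BM1 (39.6 to 324 FPKM) and LM2 (170 to 472 FPKM) (2.24 ± 0.36, standard error, limma adjusted p 0.0158). FST, follistatin, an activin inhibitor, rose in BM1 (51.6 to 269 FPKM) and LM2 (26.4 to 91.1 FPKM) (2.06 ± 0.27, adjusted p 0.0100, limma). ITGAV, an integrin chain that takes part in activating latent TGF-beta, rose by 1.55, and INHBA, an activin subunit outside the naming rule and named after its value was seen, rose by 1.30. NRROS, which tethers latent TGF-beta to cells, was the gene that fell (-1.19). THBS1 and ITGAV overlap genes on the opposite strand, THBS1 also one on the same strand, and NRROS overlaps PIGX on the same strand. TGFB3, ENG, JUNB, CCN2 and SMURF2, named below, overlap opposite-strand genes. TGFB3 and LTBP1 did not pass, with changes of -0.17 and 1.26 in BM1 and 0.45 and -0.68 in LM2.

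Of the other receptors and co-receptors (10 tested), BAMBI, a decoy receptor without kinase activity, rose by 1.10, in BM1 2.95 to 7.88 FPKM and in LM2 6.88 to 15.2 FPKM. ACVR1, a type I receptor of the BMP and activin branch, fell by 1.07 on the log2 scale, in BM1 4.52 to 1.84 FPKM and in LM2 6.42 to 2.25 FPKM. The limma adjusted p was 0.0423 for BAMBI and 0.0465 for ACVR1. ENG (endoglin) and ACVR1B (an activin type I receptor) changed by -0.81 and -0.20 and did not pass. Of 19 signal transducers tested, DAB2, an adaptor that binds the receptors, rose by 1.17 and no other gene passed. The calls in these 2 lists stand beside 2.71% higher and 2.76% lower of all genes tested.

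None of 27 inhibitors and turnover genes passed in limma, where the background was 2.71% higher and 2.76% lower. With shares this small, 0 calls among 27 genes cannot show that the list did not respond. By the 2-fold rule, 5 of the 27 were higher and 0 lower in the BM1 knockdown (background 10.1% and 6.2%). In LM2, 2 were higher and 2 lower (background 3.83% and 4.24%). SMAD7, the inhibitory SMAD induced by TGF-beta, read 0.942 FPKM in BM1 control cells against 7.53 after knockdown, and 3.05 against 3.82 in LM2 (adjusted p 0.120, limma). PMEPA1, another feedback inhibitor, read 1.15 FPKM in BM1 control cells against 0.730 after knockdown, and 13.7 against 1.44 in LM2 (adjusted p 0.102, limma), and it overlaps NKILA on the opposite strand. SMAD6 and SKI, a relative of SKIL, had changes of 1.07 and -0.39. Of 18 nuclear partners of SMADs, JUN, an AP-1 subunit, fell in BM1 (44.1 to 12.7 FPKM) and LM2 (49.9 to 22.9 FPKM) (-1.40 ± 0.27, standard error, limma adjusted p 0.0266), while JUNB changed by -0.84 and did not pass. JUN was the only call in that list, beside the same shares of all genes tested.

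Of 29 target genes tested, 2 rose and 1 fell in the knockdowns, beside 2.71% and 2.76% of all genes tested. COL1A1 rose in BM1 (1.94 to 11.1 FPKM) and LM2 (29.2 to 74.2 FPKM) (1.67 ± 0.28, standard error, limma adjusted p 0.0170). NEDD9, a scaffold protein of focal adhesions, rose by 1.54. Of the textbook targets, 3 named here had opposite signs in the lines and did not pass: CCN2 (listed as CTGF) changed by -1 in BM1 and 0.29 in LM2, CDKN1A by 1.28 and -0.58, and KLF10 by 0.84 and -0.90. The summed level of 3 fibroblast markers, PDGFRB, THY1 and LUM, was 1.48 and 3.73 FPKM in the BM1 control and knockdown and 0.799 and 4.55 FPKM in LM2, with THY1 at most 0.0843 FPKM; CD68, the leukocyte marker analysed, read 23.5 and 4.46 in BM1 and 9.5 and 2.04 in LM2. Of 5 epithelial markers, CDH1 was higher in both knockdowns (0.489 to 4.08 FPKM in BM1, 0.170 to 2.30 in LM2), CLDN4 was lower in BM1 (22.2 to 5.48) and higher in LM2 (1.26 to 2.85), and their sum went from 27.8 to 16.2 in BM1 and from 4.97 to 9.03 in LM2. The part of these shifts, and of the mitochondrial share, in the calls of COL1A1 and the other pathway genes was not tested.

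**Figure D5:**
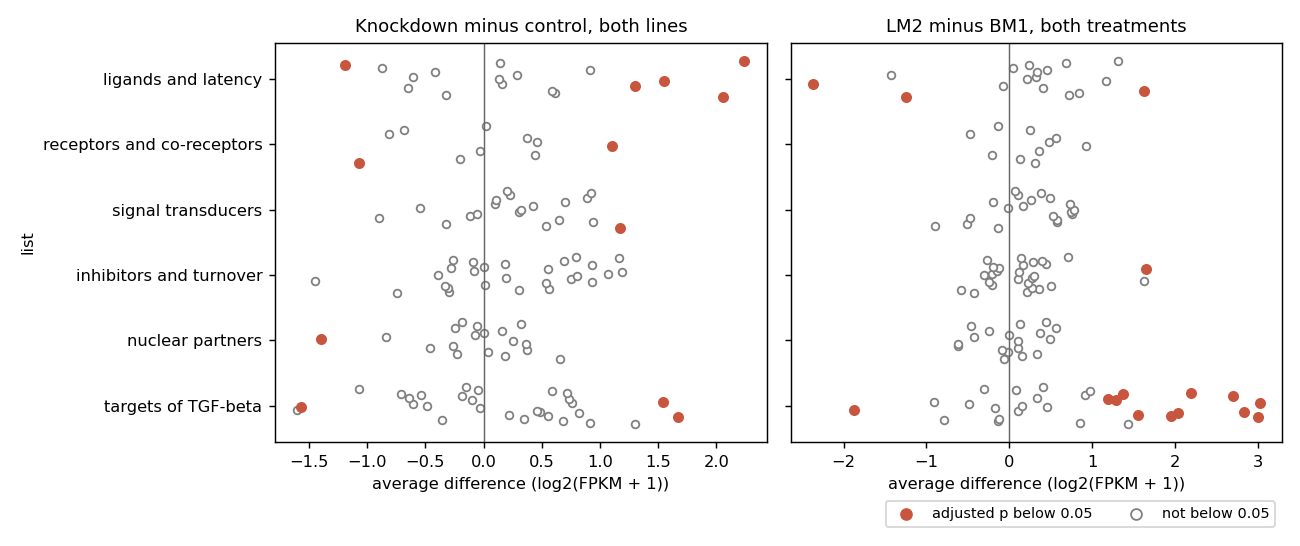
Average difference on log2(FPKM + 1) of the 120 pathway genes tested, 1 point per gene, by list (vertical), for knockdown minus control over both lines (left) and LM2 minus BM1 over both treatments (right); red points have a limma adjusted p below 0.05 and open points do not. In the left panel 8 genes are red on the higher side and 4 on the lower, and in the right panel 11 of the 13 genes called higher in LM2 are TGF-beta targets. The lists were chosen with earlier results of these data known.

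Between the lines, most calls in the same lists fell among the target genes. The lists were chosen with earlier results of these data known, so these counts and medians are a description and no independent support. In limma 13 of the 120 pathway genes were higher and 3 lower in LM2, beside 2.31% and 2.04% of all genes tested, with a median difference of 0.24 against -0.01 over all genes. Of the 29 targets, 11 were higher and 1 lower, with a median of 0.85. MMP2, a matrix metalloproteinase, was at 0.0171 and 0.0469 FPKM in the BM1 libraries and 4.07 and 13.1 FPKM in LM2 (3.03 ± 0.35, standard error, limma adjusted p 0.00272). FN1 read 24.4 FPKM in BM1 control cells against 38.7 after knockdown, and 201 against 250 in LM2 (2.83 ± 0.26, adjusted p 0.000974, limma), and COL1A1 differed by 3.

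IL11, a cytokine linked to bone metastasis, was the target gene lower in LM2, at 108 and 65.6 FPKM in BM1 and 54.1 and 8.76 FPKM in LM2, a difference of -1.88. Outside the targets, FURIN, the protease that cleaves TGF-beta precursors, was higher in LM2 by 1.63 and SMURF2, a ubiquitin ligase acting on SMADs and receptors, by 1.65. INHBB, an activin subunit, was lower in LM2 by a log2 difference of -2.37, from 20.2 and 18.1 FPKM in BM1 to 2.30 and 3.57 FPKM. FST was lower by a log2 difference of -1.25. TGFB3 differed by 0.69 and LTBP1 by -1.43 without passing. Summed luminal markers (GATA3, ERBB2, XBP1 and KRT19) read 291 and 172 FPKM in the BM1 libraries and 86.5 and 75.1 in the LM2 libraries, with KRT19 at 225, 118, 20.1 and 24.8, and summed epithelial markers (5, led by CLDN4) 27.8, 16.2, 4.97 and 9.03; the part of these shifts in these calls was not tested.

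The calls among the 120 pathway genes depended on the settings. In the knockdown contrast 12 genes were called as fitted, 4 (COL1A1, FST, NEDD9 and THBS1, all higher) after rescaling without mitochondrial genes, and 0 with a pseudocount of 0.1, with quantile normalization, without the filter, without the term for line, or after leaving out any single library, fits in which limma gave 39, 45, 37, 21 and 13 to 27 of them at an unadjusted p below 0.05. In the contrast of lines 16 were called as fitted and 3 (COL1A1 and FN1 higher, INHBB lower) after quantile normalization, 0 without the filter or without the term for treatment (38 and 18 at an unadjusted p below 0.05), and 0 or 1 after leaving out a library.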

How the data were processed

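RNA from 4 cultures was sequenced, 1 stranded paired-end polyA library each, per the labels' protocols. The authors deposited FPKM values per gene, 1 column per library; STAR 2.5.3a, Cuffdiff 2.2.1 and GRCh37 are named by the submitters' processing notes. Annotation release and strand setting: not given in the sources used here. Gene IDs listed more than once (3 IDs, 40 rows) were left out, which left 20329 genes, and 13928 with a mean of at least 1 FPKM were tested on log2(FPKM + 1). The knockdown and line contrasts came from 1 limma 3.58.1 fit (R 4.3.3) with terms for line and treatment, no trend, two-sided, Benjamini-Hochberg over all genes, threshold 0.05; the line pairs each knockdown with its control. Within a line a fixed 2-fold rule was used, with no test. The fit was also run on simulated data with purely additive effects of line and treatment. That run cannot show how the fit fares on changes that differ between the lines. Nothing says that the libraries came from separate experiments, and the p-values measure no spread of replicates. They rest on the difference between the lines' knockdown changes, with each gene's spread drawn toward a value shared by all genes tested.

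Depth was read from 1623 genes with 1 transcript in GENCODE 29, a mean under 0.5 FPKM and over 600 bases: of values no larger than 10 steps, 36.6% to 44.9% were whole to a tolerance of 0.02. Most were not, so no count test was run. Promoters came from RefSeq. The members, lists, motifs and naming rule were chosen with earlier results of these data known. The rule named all 10 members, HNRNPM, 15 textbook pathway genes (CDKN2B was not analysed here), up to 3 called genes per list, direction and contrast, and the 5 genes most like TGFBR2 and TGFBI; some genes under it are not reported here. Alternatives were 2 pseudocounts, 3 scalings, no filter, dropped terms, each library left out and a 1.5-fold rule.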

Additional observations from a re-analysis of the deposited data

Results flagged for a closer look

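Several genes moved in opposite directions in the 2 lines, or between the lines under the 2 shRNAs; none of these differences was tested. Knockdown minus control on log2(FPKM + 1), BM1 first and LM2 second, was 0.13 and -0.74 for TGFBR1, -0.17 and 0.45 for TGFB3, and 1.26 and -0.68 for LTBP1. It was -1 and 0.29 for CCN2, 0.84 and -0.90 for KLF10, and 1.28 and -0.58 for CDKN1A. LM2 minus BM1, controls first and knockdowns second, was 0.25 and -0.31 for TGFBR3 and -0.26 and 0.09 for SMAD4. The same pair was -0.66 and 0.25 for SMAD6, 1.06 and -0.82 for SMAD7, 0.70 and -1.04 for KLF10, and 0.81 and -1.05 for CDKN1A.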

How the results depend on the processing

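Of 200 recomputed differences of the 10 genes (40 differences, 5 scalings and pseudocounts), 198 kept their sign; the exceptions were SMAD4 in BM1, at -0.10 with quantile normalization and -0.02 with median-ratio scaling. In the knockdown contrast limma called 762 genes as fitted, 27 with a pseudocount of 0.1, 216 without mitochondrial genes, and 0 with quantile normalization (3255 at an unadjusted p below 0.05), without the filter (3735) or with no replicate block, the fit that does not pair libraries by line (1548). Leaving out a library gave 0 to 0 (860 to 1943 unadjusted). Pathway calls went from 12 to 0, 4, 0, 0 and 0 in the same settings, and 0 to 0 with a library left out. Between lines the 606 calls became 216 (pseudocount 0.1), 104 (quantile), 271 (no mitochondrial genes), 0 (no filter; 3634 unadjusted) and 11 (no term for treatment), and 6 to 28 with a library left out. The 16 pathway calls became 6, 3, 10, 0 (38 unadjusted) and 0 (18 unadjusted), and 0 to 1 with a library left out, the 1 being MMP2. Fits with 3 libraries lose the pairing and assume that the lone library of an arm varies like the others. The 2-fold counts of 2264 (BM1), 1123 (LM2), 1705 (controls) and 1259 (knockdowns) became 5262, 3418, 4738 and 3865 at 1.5-fold. A pseudocount of 0.1 gave 3207 in BM1, 1824 in LM2, 2636 between controls and 2013 between knockdowns. The cause was not tested. The lowest value, SKIL in the BM1 control, has the fewest fragments behind it.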
